A study of Homo sapiens with 4 samples.

Results

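The 51 genes described here belong to the hypoxia response and to glycolysis, and were chosen by name from the 64252 gene rows of a count table. They comprise 9 genes for the subunits of the hypoxia-inducible factors (HIFs) and their oxygen sensors, 12 genes known as HIF targets, 4 pyruvate dehydrogenase kinase genes, and 26 genes for glucose uptake, glycolysis and lactate handling. The rule used no measured value, but the members and lists were chosen with earlier results of these data known. All 51 names matched 1 row each. The cells were SK-N-BE(2), an established line grown from a human neuroblastoma with MYCN amplification. One group of 2 libraries received a scramble short hairpin RNA (shRNA), and the other group of 2 libraries received an shRNA against IRF2BP2, a transcriptional co-regulator. The question was which of these transcripts differ when IRF2BP2 is lowered. Both groups are the same line, and the labels name neither the number of hairpins, nor the time after delivery, nor the oxygen level of the culture.

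HIFs are pairs of an oxygen-labile alpha subunit (HIF1A, EPAS1 or HIF3A) and a stable partner (ARNT or ARNT2). When oxygen is present, the prolyl hydroxylases EGLN1, EGLN2 and EGLN3 mark the alpha subunit, VHL recognises the mark, and the protein is destroyed, so that the level of the alpha protein is set largely after transcription. Genes under HIF control include those of glucose uptake and glycolysis, by which cells make ATP and lactate from glucose, and neuroblastoma cells with amplified MYCN are known for an active glycolysis. Transcript counts measure neither HIF protein nor the flow of glucose.

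Total counts lay between 30847699 and 34684651 per library. IRF2BP2 itself stood at 243 and 238 CPM (counts per 1000000, TMM-scaled) with scramble against 89.6 and 87.6 CPM with its shRNA, so the labels matched the targeted gene. Of 10 adrenergic neuroblastoma markers, 9 had at least 10 CPM in every library. The summed levels of 5 endothelial, 6 immune and 5 glial markers lay between 0.875 and 7.75 CPM, with PECAM1, CD3E and LYZ at 0 counts, while 4 of 8 stromal markers had at least 10 CPM in every library and that list summed to 538 and 522 CPM with scramble and 450 and 446 CPM with the IRF2BP2 shRNA. Single stromal markers went both ways, COL3A1 from 19.1 and 17 CPM to 49.1 and 52.4 CPM and LUM from 108 and 102 CPM to 52.3 and 50.7 CPM, with COL1A2 at 8 and 10 and then 0 counts. The part of these markers in the results was not tested. Mitochondrially encoded genes held 7.27% and 7.10% of the scramble counts and 6.42% of the counts of each IRF2BP2 shRNA library. In bulk RNA, fewer cells with a transcript and less of it per cell cannot be told apart. The labels do not say whether the replicates are separate cultures. What the p-values below weigh is library-to-library variation within a group, which may be technical.

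Of the 50 members tested, 31 differed between the groups (62.0%), 19 higher and 12 lower with the IRF2BP2 shRNA. The test was edgeR's quasi-likelihood F-test with Benjamini-Hochberg adjustment over 19093 genes at a threshold of 0.05, and by it 42.0% of all genes tested were called, 20.6% higher and 21.4% lower. The called share rises with the level of a gene: it was 57.4% among all tested genes with a mean of at least 10 CPM (31.5% higher and 25.8% lower), and 67.6% (25 of 37) among the members at that level. The members' share is thus to be read against genes of this abundance, and not against all genes. The same holds below for the shares of lists made up mostly of genes at this level. The median log2 fold change of the members was 0.08, beside -0.01 over all genes tested. Of the 31 called members, 14 moved by more than 1.5-fold, beside 3384 of the 8016 genes called among all genes tested. Over all genes tested, 17.7% were called and moved that far. PDK4 had 6 and 9 counts with scramble and 11 and 2 counts with the IRF2BP2 shRNA, too few for the test, and is the member left out. Both IRF2BP2 shRNA libraries lay above both scramble libraries in 22 of the 50 members, beside 34.4% of all genes tested, and below them in 16, beside 36.0%. These 34.4% and 36.0%, like the median of -0.01, are over all genes and not over genes of the members' abundance.

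The alpha subunit genes moved in opposite directions. HIF1A, at 14:61695513-61748259 on the plus strand (GRCh38), had 276 and 272 CPM with scramble and 477 and 468 CPM with the IRF2BP2 shRNA. Its level was thus 1.73-fold higher, a log2 fold change of 0.79 with a standard error of 0.04 (edgeR adjusted p = 3.52e-08). EPAS1, which encodes HIF-2 alpha and lies at 2:46293667-46386703 on the plus strand, had 4.73 and 5.54 CPM with scramble and 1.94 and 1.91 CPM with the shRNA. It fell by 1.41 on the log2 scale (standard error 0.22, edgeR adjusted p = 3.58e-04). Neither gene's groups overlapped. HIF3A, which encodes an alpha subunit with inhibitory forms, lay at 2.16 and 2.44 CPM and then at 1.91 and 1.31 CPM, and was not called (edgeR adjusted p = 0.194).

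HIF1A transcripts dominated the alpha subunits on a per-length scale, that is, counts divided by exon length and scaled to the same total in each library. Exon length is the union of all annotated exons of a gene, so shares between genes here and below depend on the annotation. HIF1A made up 98.3% and 98.0% of the summed per-length level of the 3 genes with scramble and 99.5% in each IRF2BP2 shRNA library. The share of EPAS1 was 1.19% and 1.41% with scramble and 0.286% in each shRNA library. With 2 libraries against 2, an exact permutation test of such a share cannot give a two-sided p under 0.333, so the shares here and below are given as values.

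Among the stable partners, ARNT rose from 48.6 and 49.5 CPM to 59.6 and 58.1 CPM, a log2 fold change of 0.26. ARNT2, the form abundant in neural cells, had 76.2 and 74.1 CPM with scramble and 71.6 and 72.3 CPM with the shRNA (log2 fold change -0.06, edgeR adjusted p = 0.339). Per length, ARNT held 43.1% and 44.2% of the pair with scramble and 49.7% and 48.8% with the shRNA.

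The oxygen sensor EGLN3, itself a gene known to be induced by HIF, rose most in its family. It lies at 14:33924231-34462774 on the minus strand, and its level was 17.1 and 18.2 CPM with scramble and 38.1 and 36.1 CPM with the IRF2BP2 shRNA (log2 fold change 1.07, standard error 0.08, edgeR adjusted p = 1.34e-06). EGLN1, the main hydroxylase of HIF1A in most cells, rose from 49.9 and 53.5 CPM to 66.2 and 60.7 CPM (log2 fold change 0.30, edgeR adjusted p = 0.00355). EGLN2 lay between 43.7 and 48.6 CPM in the 4 libraries with overlapping groups, and VHL between 68.2 and 73.4 CPM, also with overlapping groups. Neither passed the test (edgeR adjusted p = 0.735 and 0.544). The share of EGLN3 in the summed per-length level of the 3 hydroxylases went from 14.7% and 14.5% to 24.5% and 23.8%. Of the 9 genes for subunits and sensors, 4 rose, 1 fell and 4 showed no call (44.4% higher and 11.1% lower, beside 20.6% and 21.4% of all genes tested), and the median log2 fold change was 0.05. At a mean of at least 10 CPM, which 7 of the 9 reached, 31.5% of tested genes were higher and 25.8% lower.

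**Figure D1:**
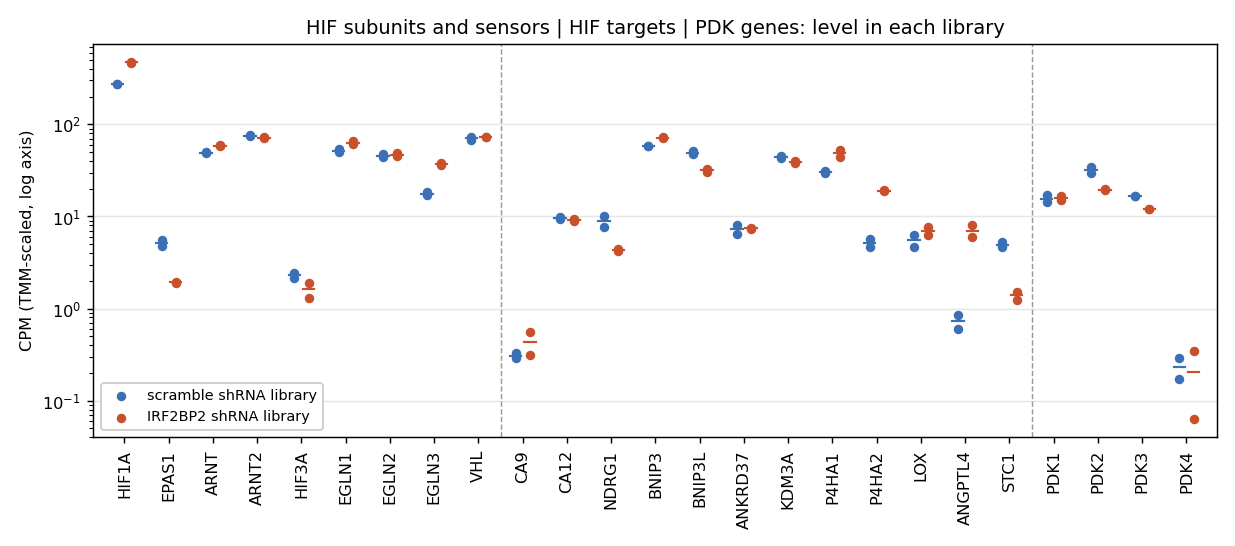
Level of each HIF subunit, sensor, target and pyruvate dehydrogenase kinase gene in CPM on a log axis, with 1 point per library, a line at the mean of the 2 libraries of a group, and dashed lines between the 3 lists. HIF1A stands highest, at 276 and 272 CPM with scramble and 477 and 468 CPM with the IRF2BP2 shRNA, while EPAS1 and STC1 lie lower and ANGPTL4 and P4HA2 higher in both IRF2BP2 shRNA libraries.

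The HIF targets moved both ways. Of 12, 4 rose (BNIP3, P4HA1, P4HA2 and ANGPTL4), 3 fell (NDRG1, BNIP3L and STC1) and 5 did not pass the test (CA9, CA12, ANKRD37, KDM3A and LOX). The median log2 fold change was 0.16. That is 33.3% higher and 25% lower, beside 20.6% and 21.4% of all genes tested. At a mean of at least 10 CPM, which 5 of the 12 reached, 31.5% of tested genes were higher and 25.8% lower. Log2 fold changes spanned -1.82 to 3.28, wider than in the glycolysis list.

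ANGPTL4, a secreted inhibitor of lipoprotein lipase, had the largest change of all members. It lies at 19:8363289-8374373 on the plus strand and had 0.605 and 0.847 CPM with scramble (21 and 26 counts) and 8.07 and 6.0 CPM with the IRF2BP2 shRNA (258 and 192 counts). The log2 fold change was 3.28 with a standard error of 0.27 (edgeR adjusted p = 2.62e-06). P4HA2, a catalytic subunit of the collagen prolyl hydroxylase, at 5:132191838-132295315 on the minus strand, rose from 4.64 and 5.73 CPM to 19.2 and 18.7 CPM (log2 fold change 1.87, standard error 0.14, edgeR adjusted p = 9.65e-07). Both genes were low with scramble, and both shRNA libraries lay far above both scramble libraries. The related subunit gene P4HA1 started higher, at 31.2 and 29.7 CPM, and rose to 52.9 and 44.1 CPM (log2 fold change 0.67, edgeR adjusted p = 1.29e-04). P4HA2 accordingly took 11.7% and 13.4% of the pair's per-length level with the shRNA, after 5.14% and 6.57% with scramble.

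STC1, which encodes the secreted glycoprotein stanniocalcin, fell most. It had 4.64 and 5.24 CPM with scramble and 1.53 and 1.25 CPM with the IRF2BP2 shRNA, a log2 fold change of -1.82 with a standard error of 0.24 (edgeR adjusted p = 9.72e-05). NDRG1, a stress-responsive gene that is repressed by MYCN, had 7.75 and 10.1 CPM with scramble and 4.41 and 4.25 CPM with the shRNA (log2 fold change -1.04, edgeR adjusted p = 7.37e-04). In both genes the groups did not overlap.

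BNIP3 and BNIP3L, paralogs that act as receptors for the removal of mitochondria, changed in opposite directions. BNIP3 rose from 58.6 and 58.7 CPM to 71.3 and 72.1 CPM (log2 fold change 0.29, edgeR adjusted p = 8.91e-04), and BNIP3L fell from 47.4 and 51.3 CPM to 30.7 and 33.0 CPM (log2 fold change -0.63, edgeR adjusted p = 4.37e-05). Per length the pair was nearly even with scramble, BNIP3 holding 50% and 48.1%, and BNIP3 held 65.3% and 63.8% with the shRNA. The BNIP3L row shares 330 exonic bases with PNMA2 on the opposite strand, which also fell (log2 fold change -0.59), and the TruSeq RNA kit that the labels name does not mark strand, so reads from these bases cannot be told apart. Rows of pseudogenes named after BNIP3 held 8.93% of the count of BNIP3 itself, the largest such share among the members.

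CA9, the carbonic anhydrase widely used as a hypoxia marker, was barely detected. It had 10 counts in each scramble library and 18 and 10 counts with the IRF2BP2 shRNA, and 643 of its exonic bases overlap ARHGEF39 on the opposite strand, a row with a mean of 1094.5 counts. CA12 lay between 9.03 and 9.83 CPM, ANKRD37 between 6.43 and 8.05 CPM and LOX, a collagen cross-linking enzyme, between 4.66 and 7.67 CPM, each with overlapping groups. KDM3A, a histone demethylase, had 43.1 and 44.8 CPM with scramble and 38.2 and 40.2 CPM with the shRNA (edgeR adjusted p = 0.0816). Without scramble replicate 1, LOX passed the test (log2 fold change 0.59, edgeR adjusted p = 0.0471, against 0.192 with all libraries).

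**Figure D2:**
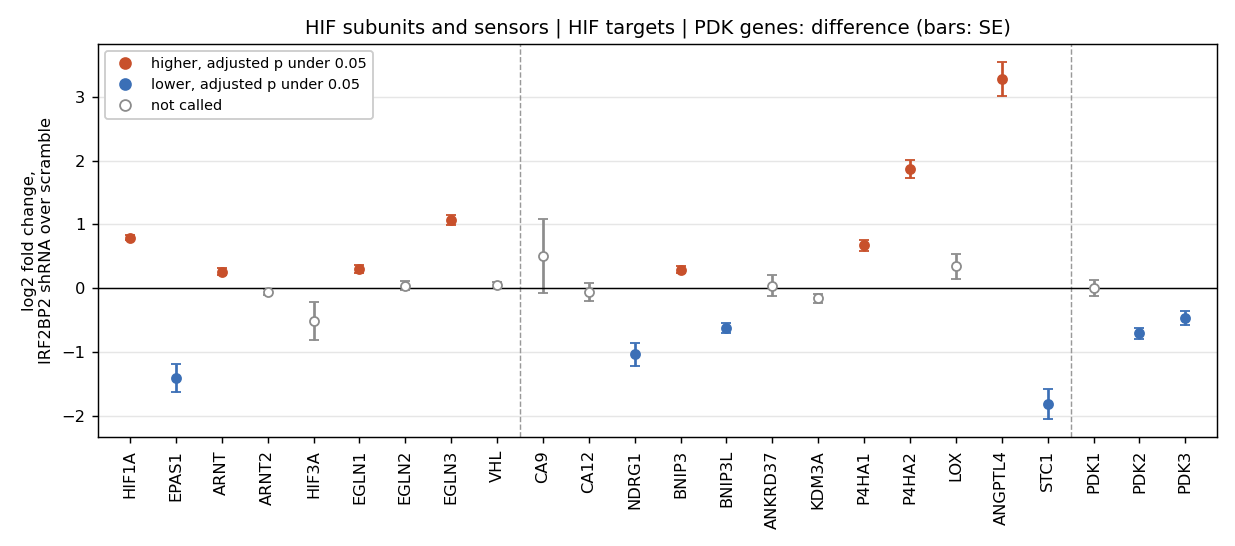
Log2 fold change of each tested HIF subunit, sensor, target and pyruvate dehydrogenase kinase gene, IRF2BP2 shRNA over scramble, with bars of 1 standard error. Filled points passed the edgeR test, with ANGPTL4 at 3.28 and STC1 at -1.82 as the extremes.

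The core of the hypoxia response element, the DNA stretch that HIF binds, is ACGTG or GCGTG. Windows of 300 bases, from 250 bases before to 50 after annotated starts, were taken from RefSeq (GRCh38.p14), which gave 79 windows for 43 of the 51 members. At least 1 match on either strand stood in a window of 38 of the 43 members (88.4%), beside 62.3% of the 15207 protein-coding genes of the count table that had a window and 52.4% of all 27305 genes in the table. The members' windows had a median GC content of 66.7%, beside 62.7% for protein-coding genes, and several members have more windows than 1, which raises the chance of a match. By window, 64.6% of the members' and 54.9% of the protein-coding windows held a match. A match was found in 14 of 18 members that rose, 8 of 8 that fell and 16 of 16 that were not called. Matches thus stood beside all 3 outcomes. The 5 windows below are of members that rose or were not called, and none is of a member that fell. First come the member that rose most, a member that rose without a match and a target that was not called. Then come the glycolysis gene that rose most and a glycolytic gene that was not called. Matches of either strand are in capitals (CACGT and CACGC are the same letters read from the other strand).
ANGPTL4, chr19:8363905-8364204, plus strand: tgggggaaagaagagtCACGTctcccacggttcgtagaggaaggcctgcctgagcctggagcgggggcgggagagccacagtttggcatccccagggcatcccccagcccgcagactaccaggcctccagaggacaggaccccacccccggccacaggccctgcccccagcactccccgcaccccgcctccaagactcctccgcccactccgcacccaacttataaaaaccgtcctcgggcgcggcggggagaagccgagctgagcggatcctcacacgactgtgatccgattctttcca
P4HA2, chr5:132227042-132227341, minus strand: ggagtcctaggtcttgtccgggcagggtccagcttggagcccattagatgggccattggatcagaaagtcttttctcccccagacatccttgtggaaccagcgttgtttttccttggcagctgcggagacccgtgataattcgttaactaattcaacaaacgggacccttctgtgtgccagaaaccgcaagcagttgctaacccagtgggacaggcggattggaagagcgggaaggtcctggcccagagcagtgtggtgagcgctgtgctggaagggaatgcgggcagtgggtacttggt
ANKRD37, chr4:185396591-185396890, plus strand: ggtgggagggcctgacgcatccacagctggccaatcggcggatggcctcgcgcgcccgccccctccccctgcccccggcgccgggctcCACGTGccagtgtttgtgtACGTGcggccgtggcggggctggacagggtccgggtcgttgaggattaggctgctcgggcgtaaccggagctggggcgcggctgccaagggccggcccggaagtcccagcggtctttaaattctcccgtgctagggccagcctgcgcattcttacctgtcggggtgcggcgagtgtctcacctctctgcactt
PFKFB3, chr10:6202682-6202981, plus strand: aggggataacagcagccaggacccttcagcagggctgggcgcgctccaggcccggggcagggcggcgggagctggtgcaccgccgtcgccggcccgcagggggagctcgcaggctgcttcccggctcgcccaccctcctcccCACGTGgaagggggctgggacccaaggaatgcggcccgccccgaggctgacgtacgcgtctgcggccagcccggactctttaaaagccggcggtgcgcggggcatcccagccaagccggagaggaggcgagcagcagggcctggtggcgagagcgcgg
PGK1, chrX:78103998-78104297, plus strand: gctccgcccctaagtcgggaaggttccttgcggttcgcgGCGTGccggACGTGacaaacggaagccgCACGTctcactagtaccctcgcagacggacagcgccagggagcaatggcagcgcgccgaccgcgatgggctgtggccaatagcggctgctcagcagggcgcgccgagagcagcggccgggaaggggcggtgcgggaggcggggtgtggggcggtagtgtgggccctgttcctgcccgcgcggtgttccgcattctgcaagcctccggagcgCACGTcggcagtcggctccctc
ANKRD37 and PGK1 carried 3 and 4 matches and were not called, while P4HA2 carried none in this window and rose. The ANKRD37 row shares 909 exonic bases with UFSP2 on the opposite strand (mean count 709.0 against 236.0). The PGK1 row shares 97 with ATP7A on the same strand (mean count 4239.0 against 14439.0), which fell (log2 fold change -1.17). The overlapping CACGTG in ANKRD37 and in PFKFB3 is read as a match on each strand. A match is a description of letters and says nothing of binding in these cells.

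The pyruvate dehydrogenase kinases, which switch off the entry of pyruvate into the mitochondrial cycle, showed no rise that passed the test. PDK1, the member of the family best known as a HIF target, had 17.1 and 14.2 CPM with scramble and 15 and 16.5 CPM with the IRF2BP2 shRNA (log2 fold change 0.00, standard error 0.12, edgeR adjusted p = 0.985). PDK2 fell from 29.8 and 34.4 CPM to 19.2 and 19.9 CPM (log2 fold change -0.71, edgeR adjusted p = 8.05e-05) and PDK3 from 16.5 CPM in each scramble library to 11.9 CPM in each shRNA library (log2 fold change -0.47, edgeR adjusted p = 0.00429). PDK2 had the highest per-length level of the family in all 4 libraries, with shares of 54.6% and 59.1% with scramble and 50.2% and 50.8% with the shRNA. The PDK2 row shares 2113 exonic bases with SAMD14 on the opposite strand, a row with a mean of 131.0 counts against 835.5 that also fell (log2 fold change -1.0).

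Glycolysis and lactate genes rose more often than they fell. Of 26, 11 rose and 6 fell while 9 showed no call, that is 42.3% higher and 23.1% lower beside 20.6% and 21.4% of all genes tested. The median log2 fold change was 0.09. At a mean of at least 10 CPM, 11 of 22 were higher and 4 lower (18.2%), beside 31.5% and 25.8% of all tested genes of that level. Together they held 1.21% and 1.22% of all counts with scramble and 1.34% and 1.37% with the IRF2BP2 shRNA. Only PFKFB3 and ALDOA rose, and PFKFB2 and ENO3 fell, by more than 1.5-fold. That is 4 of 26, beside 17.7% of all genes tested that were called and moved that far. Without IRF2BP2 shRNA replicate 1 the numbers were 9 higher and 3 lower, without IRF2BP2 shRNA replicate 2 they were 8 and 4, and with upper quartile scaling 8 and 6.

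Glucose uptake genes showed little difference. SLC2A1 (GLUT1), the main carrier and a classical HIF target, had 85.1 and 86.8 CPM with scramble and 83.0 and 86.3 CPM with the IRF2BP2 shRNA (log2 fold change -0.02, standard error 0.05, edgeR adjusted p = 0.745). SLC2A3 (GLUT3), the neuronal carrier, lay between 9.02 and 12.7 CPM with overlapping groups (edgeR adjusted p = 0.373). SLC2A6 had 29.5 and 33.0 CPM with scramble and 25.7 and 27.5 CPM with the shRNA, a log2 fold change of -0.23 that passed narrowly (edgeR adjusted p = 0.0484). That call was lost without scramble replicate 2 (edgeR adjusted p = 0.276), IRF2BP2 shRNA replicate 1 (0.234) or IRF2BP2 shRNA replicate 2 (0.0838). By per-length level the order was SLC2A1, SLC2A6, SLC2A3 in all 4 libraries.

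At the first steps, HK1 and GPI rose. HK1, the hexokinase that is active in most tissues, went from 214 and 208 CPM to 263 and 280 CPM (log2 fold change 0.36, standard error 0.04, edgeR adjusted p = 4.90e-05). HK2, the hexokinase known as inducible by HIF, had 140 and 145 CPM with scramble and 143 and 141 CPM with the shRNA (log2 fold change -0.01, edgeR adjusted p = 0.934). HK1 thereby held 63.9% and 65.6% of the pair's per-length level with the shRNA, after 59.6% and 58.0% with scramble. GPI, which turns glucose phosphate into fructose phosphate, rose from 160 and 161 CPM to 198 and 220 CPM (log2 fold change 0.38, edgeR adjusted p = 1.01e-04).

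At the phosphofructokinase step, the committed step of glycolysis, the most abundant subunit gene fell. PFKP had 252 and 263 CPM with scramble and 212 and 224 CPM with the IRF2BP2 shRNA (log2 fold change -0.24, standard error 0.04, edgeR adjusted p = 8.84e-04). PFKM lay between 181 and 188 CPM and PFKL between 44.6 and 54.2 CPM, and neither passed the test (edgeR adjusted p = 0.443 and 0.113). Without IRF2BP2 shRNA replicate 1, PFKL passed it (log2 fold change 0.25, edgeR adjusted p = 0.0291). PFKP held 62.9% and 63.9% of the per-length level of the 3 genes with scramble and 59.0% and 60.0% with the shRNA, so it stayed the most abundant.

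PFKFB3, which makes the fructose bisphosphate that activates phosphofructokinase, rose most among the glycolysis genes. It lies at 10:6144934-6254644 on the plus strand, and its level was 142 and 149 CPM with scramble and 242 and 249 CPM with the IRF2BP2 shRNA (log2 fold change 0.76, standard error 0.04, edgeR adjusted p = 1.09e-07). PFKFB3 made up 95.5% and 95.7% of the per-length level of the 3 family members with scramble and 97.7% and 97.5% with the shRNA. PFKFB2 had 4.96 and 4.59 CPM with scramble and 3.0 and 3.31 CPM with the shRNA (log2 fold change -0.60, edgeR adjusted p = 0.0361), a call that was lost without any 1 of the 4 libraries (edgeR adjusted p between 0.0593 and 0.179) and whose row shares 315 exonic bases with YOD1 on the opposite strand (mean count 996.8 against 128.8). PFKFB4, a HIF target in many cells, lay between 3.75 and 4.34 CPM with overlapping groups (edgeR adjusted p = 0.774).

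ALDOA, the main aldolase, rose by a similar amount. It lies at 16:30064164-30070457 on the plus strand and went from 587 and 592 CPM to 912 and 923 CPM (log2 fold change 0.64, standard error 0.03, edgeR adjusted p = 8.11e-08). ALDOC, the brain aldolase, had 12.6 and 12 CPM and then 13.6 and 15.1 CPM, which was not called (edgeR adjusted p = 0.148). TPI1, which interconverts the triose phosphates, rose from 508 and 524 CPM to 635 and 665 CPM (log2 fold change 0.33, edgeR adjusted p = 3.75e-05). The ALDOA and TPI1 transcripts were therefore both higher in both shRNA libraries.

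**Figure D3:**
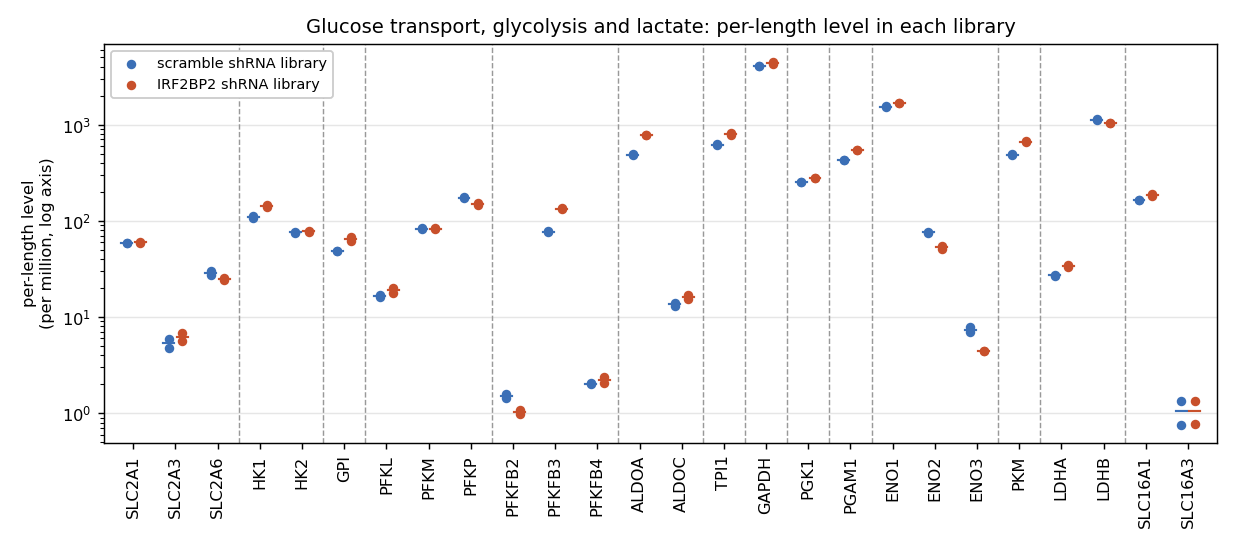
Per-length level (counts over exon length, scaled to the same total in each library, log axis) of the genes of glucose transport, glycolysis and lactate handling, in the order of the pathway, with 1 point per library, a line at the group mean and dashed lines between steps. GAPDH, ENO1 and LDHB stand highest, LDHA lies far below LDHB, and ALDOA and PFKFB3 are higher in both IRF2BP2 shRNA libraries.

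In the later steps of the pathway, GAPDH and ENO1, the most abundant of the glycolysis genes, barely moved. GAPDH, the enzyme that reduces NAD, had 3673 and 3743 CPM with scramble and 3842 and 4006 CPM with the IRF2BP2 shRNA (log2 fold change 0.08, standard error 0.03, edgeR adjusted p = 0.0485). ENO1, the ubiquitous enolase, had 2497 and 2496 CPM and then 2615 and 2676 CPM (log2 fold change 0.08, edgeR adjusted p = 0.0383). These are rises of 1.06-fold that passed narrowly: the GAPDH call was lost without scramble replicate 1 or either IRF2BP2 shRNA replicate (edgeR adjusted p = 0.0607, 0.0661 and 0.411), and the ENO1 call without either IRF2BP2 shRNA replicate (0.107 and 0.296), and both with upper quartile scaling. PGK1, a classical HIF target that makes ATP, had 432 and 436 CPM with scramble and 457 and 462 CPM with the shRNA (log2 fold change 0.08, edgeR adjusted p = 0.0866). PGAM1, the phosphoglycerate mutase, rose from 333 and 341 CPM to 422 and 424 CPM (log2 fold change 0.33, edgeR adjusted p = 2.94e-05). Of the 75-base stretches in transcripts of PGAM1, 28.0% also stand in another gene with a row in the table, so that its reads could be split among copies.

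The neuronal and muscle enolases fell while ENO1 did not. ENO2, the neuron-specific enolase that serves as a serum marker in neuroblastoma, fell from 101 CPM in each scramble library to 65.6 and 70.7 CPM (log2 fold change -0.56, standard error 0.05, edgeR adjusted p = 3.81e-06). ENO3, the muscle form, fell from 10.3 and 9.25 CPM to 5.66 and 5.72 CPM (log2 fold change -0.78, edgeR adjusted p = 0.00168). The ENO3 row shares 111 exonic bases with PFN1 on the opposite strand, a far more abundant row (mean count 11485.5 against 251.0) that rose (log2 fold change 0.22). ENO2 held 4.72% and 4.71% of the per-length level of the 3 enolases with scramble and 2.99% and 3.15% with the shRNA.

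PKM, the pyruvate kinase gene of most tissues and tumours, rose from 1286 and 1292 CPM to 1701 and 1729 CPM (log2 fold change 0.41, standard error 0.03, edgeR adjusted p = 1.19e-06). Gene counts do not separate its spliced forms.

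The lactate dehydrogenase genes moved in opposite directions, and LDHB was by far the more abundant. LDHB, the form that favours the use of lactate, had 1021 and 1049 CPM with scramble and 931 and 940 CPM with the IRF2BP2 shRNA (log2 fold change -0.15, edgeR adjusted p = 0.00482). LDHA, the form that favours lactate production and a classical target of both HIF and MYC, had 52.4 and 52.2 CPM with scramble and 65.3 and 62.8 CPM with the shRNA (log2 fold change 0.29, edgeR adjusted p = 0.00156). Per length, LDHA held only 2.41% and 2.33% of the pair with scramble and 3.26% and 3.11% with the shRNA. The union of exons was 6210 bases for LDHA and 2983 bases for LDHB, which lowers the share of LDHA. Of the 75-base stretches of LDHA transcripts, 1.24% also stand in another gene with a row in the table, and rows of pseudogenes named after LDHA held 1.70% of its count. Leaving out IRF2BP2 shRNA replicate 1 ended the LDHB call (edgeR adjusted p = 0.0602).

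The lactate carrier SLC16A1 (MCT1) had 269 and 270 CPM with scramble and 300 and 289 CPM with the IRF2BP2 shRNA. The log2 fold change of 0.13 passed the test (edgeR adjusted p = 0.0231), but not without IRF2BP2 shRNA replicate 1 (0.182) or replicate 2 (0.0533), nor with upper quartile scaling (0.141). SLC16A3 (MCT4), the carrier induced by hypoxia, was low, with 2.10 and 3.75 CPM and then 2.07 and 3.69 CPM (edgeR adjusted p = 0.974), and its row overlaps the abundant CSNK1D on the opposite strand. SLC16A1 held at least 99.2% of the pair's per-length level in each of the 4 libraries.

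**Figure D4:**
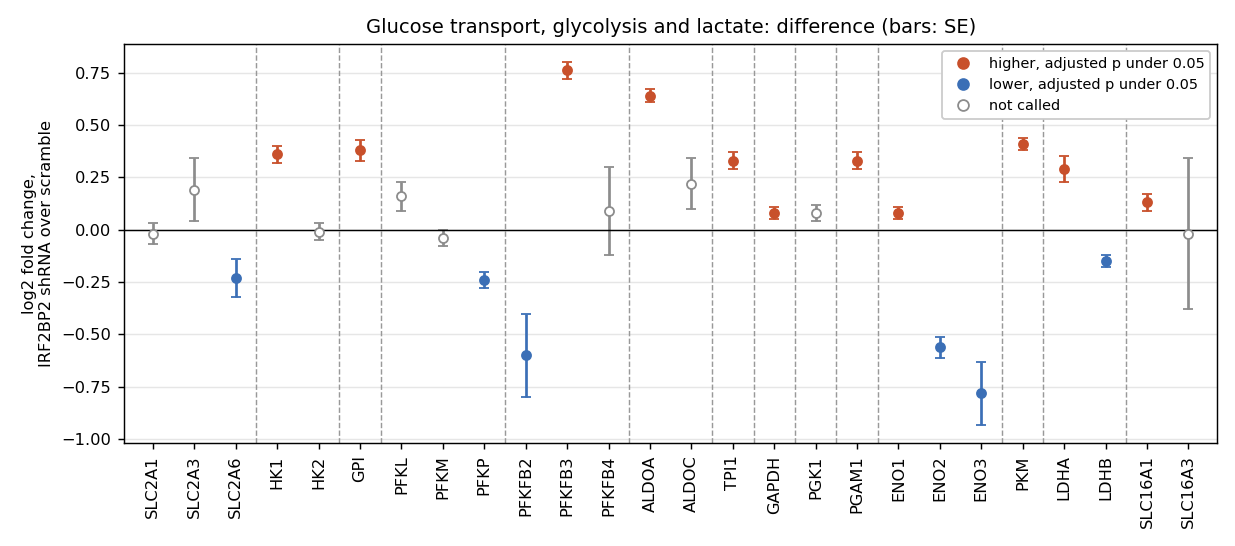
Log2 fold change of the genes of glucose transport, glycolysis and lactate handling in pathway order, IRF2BP2 shRNA over scramble, with bars of 1 standard error and dashed lines between steps. Filled points passed the edgeR test, with PFKFB3 (0.76) and ALDOA (0.64) highest and ENO3 (-0.78) lowest.

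Taking the most abundant gene of each enzyme step by per-length level, HK1, GPI, ALDOA, TPI1, PGAM1 and PKM were higher with log2 fold changes from 0.33 to 0.64, GAPDH and ENO1 were higher by 0.08, PGK1 was not called, and PFKP (-0.24) and LDHB (-0.15) were lower. This selection was made after the values were seen. Among the less abundant forms, LDHA rose (0.29), HK2, PFKL, PFKM, ALDOC and SLC16A3 were not called, and ENO2 and ENO3 fell.

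**Figure D5:**
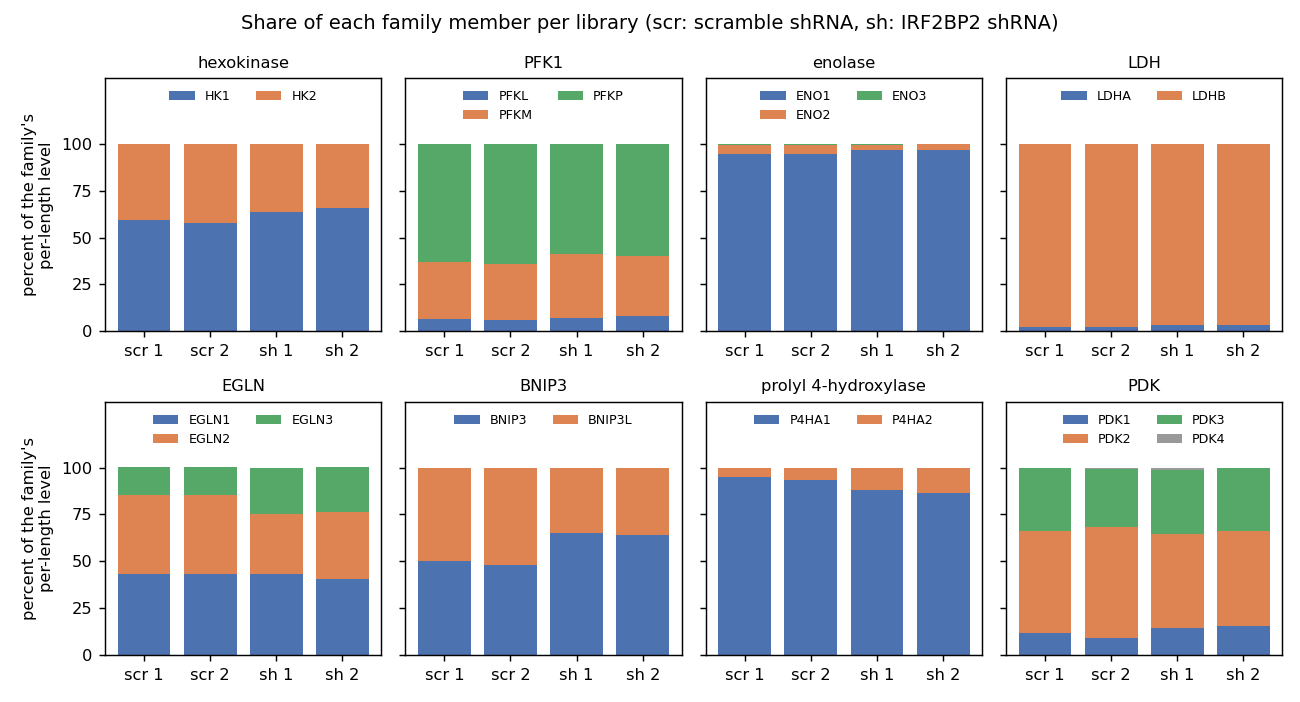
Share of each gene in the summed per-length level of its family, in percent, as stacked bars for the 2 scramble (scr) and 2 IRF2BP2 shRNA (sh) libraries. EGLN3, BNIP3, P4HA2 and HK1 take larger shares in both IRF2BP2 shRNA libraries, and LDHB makes up at least 96.7% of the lactate dehydrogenase pair in each library.

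Against the background of the wider HIF pathway, 39 of 40 further listed genes were tested, of which 10 rose and 14 fell while 15 showed no call (25.6% higher and 35.9% lower, beside 20.6% and 21.4% of all genes tested, median log2 fold change -0.05). Among the genes that rose were PLOD1 (0.72), a collagen lysyl hydroxylase, BHLHE40 (2.10), a transcriptional repressor, and the growth factor gene VEGFA (0.81), as log2 fold changes. BHLHE40 went from 4.70 and 5.83 CPM to 23.9 and 21.1 CPM. The falls with the smallest p were CYGB (-1.30), an oxygen-binding globin that went from 185 and 200 CPM to 76.1 and 79.4 CPM, ADM (-3.32), VLDLR (-1.22) and the histone demethylase KDM4B (-0.57). The largest edgeR adjusted p of these genes was 1.48e-06. Established HIF targets therefore stood among both the rises and the falls in this list, as among the members.

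Of the other glycolytic isoenzymes and regulators, 34 were listed and 24 tested, and 4 rose and 9 fell while 11 showed no call (16.7% higher and 37.5% lower, beside 20.6% and 21.4% of all genes tested, median log2 fold change -0.13). FBP1, the gluconeogenic enzyme that opposes phosphofructokinase, fell from 11.0 and 10.4 CPM to 2.44 and 1.53 CPM (log2 fold change -2.42, edgeR adjusted p = 5.51e-06). TXNIP, which limits glucose uptake and is switched on by the glucose sensor MLXIP, fell by 1.09 on the log2 scale, MLXIP itself by 0.66 and PGM2L1 by 0.39. A link between the falls of TXNIP and MLXIP was not tested. The rises were ADPGK (0.43), PGAM5 (0.21), PGM2 (0.20) and BSG (0.12), the chaperone of the lactate carriers, as log2 fold changes. PGAM5 stands in the list for its family name and not as a glycolytic enzyme. The PGM2 and BSG calls were lost without either IRF2BP2 shRNA replicate (edgeR adjusted p between 0.0660 and 0.197), and with upper quartile scaling (0.114 for PGM2 and 0.13 for BSG). The PGM2 call also ended without scramble replicate 2 (edgeR adjusted p = 0.123), and the PGAM5 call without IRF2BP2 shRNA replicate 2 (0.0537).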

How the data were processed

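Total RNA of SK-N-BE(2) cells was sequenced in 2 scramble and 2 IRF2BP2 shRNA libraries. The deposited values are raw counts per Ensembl gene, 1 column per library; per the submitters' processing notes, reads were aligned with HISAT2 2.2.0 to hg38. Which program counted the reads, on which annotation and with which strand setting, is not given in the sources used here. Control columns are headed NC and were taken as scramble because the others are named for IRF2BP2; replicates were matched by number. Symbols were found for 40995 of 64252 rows. Counts were tested with edgeR 4.0.16 (R 4.3.3, filterByExpr by group, TMM scaling, robust quasi-likelihood F-test, two-sided, Benjamini-Hochberg over 19093 genes). On simulated data, unadjusted p-values of unchanged genes kept their nominal rate. With each gene's dispersion taken from these data, the share of false calls among the adjusted p-values exceeded the threshold. With dispersions set by the trend over all genes it did not. The simulation changed far fewer genes than were called here. CPM are TMM-scaled. A standard error is the log2 fold change over the square root of F. Log2 fold changes compare the IRF2BP2 shRNA group with the scramble group. Coordinates and exon lengths are from GENCODE 29 (GRCh38), which held 56591 rows; per-length levels use the union of exons. Replicates differed by more than sampling noise (chi-square per degree of freedom 7.01 and 5.26). Alternatives were other scalings and filters, DESeq2 1.42.0, limma voom (limma 3.58.1), glmTreat, a replicate block, and leaving out each library. All members were to be named, and of each wider list up to 4 rises and 4 falls with the smallest p. Results of some listed genes are not reported here. The members and lists were chosen with earlier results of these data known.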

Additional observations from a re-analysis of the deposited data

How the results depend on the processing

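All 31 called members kept their direction in every alternative run that gave a value. Of the 31, 30 stayed called with size factors, with limma voom and with the replicate block, 29 with DESeq2, 28 with upper quartile scaling and 27 with no filter on low counts. Tested with glmTreat against a change of 1.5-fold, 8 stayed called (HIF1A, EPAS1, EGLN3, NDRG1, P4HA2, ANGPTL4, STC1 and PFKFB3). Under glmTreat the numbers higher and lower were 545 and 1074 for all genes, 1 and 0 for glycolysis and lactate, 5 and 5 for the other HIF pathway genes, 0 and 3 for the other glycolytic isoenzymes, 1 and 0 for the pentose phosphate pathway and 0 and 0 for pyruvate entry, with 2 subunit and sensor genes higher, 2 HIF targets higher and 0 pyruvate dehydrogenase kinases lower; the test asks for a larger change by construction. A mean of at least 10 CPM removed EPAS1, so 0 subunit genes were lower, and left 9 other HIF pathway genes lower, 2 other glycolytic isoenzymes higher and 4 lower, and 1 pyruvate entry gene higher. With upper quartile scaling 2 other glycolytic isoenzymes and 0 pyruvate entry genes were higher. DESeq2 gave 1 pentose phosphate gene lower and 1 pyruvate entry gene higher with 3 lower, and no filter gave 3 lower there. Leaving out 1 library gave between 3 and 5 glycolysis genes lower, 2 and 5 other glycolytic isoenzymes higher, 1 and 2 pentose phosphate genes lower, and 0 and 1 pyruvate entry genes higher with 3 and 4 lower. The cause of these shifts was not tested.

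Of the members that were not called, 6 changed sign in some setting, and PDK1, at 0.00, lay between -0.12 and 0.16 without 1 library. The log2 fold change was -0.01 for ANKRD37 and for EGLN2 with upper quartile scaling and 0.01 for HK2 with no filter. Without 1 library it ranged from -0.11 to 0.21 for ANKRD37, -0.02 to 0.10 for EGLN2, -0.02 to 0.03 for HK2, -0.01 to 0.19 for PFKFB4, -0.49 to 0.45 for SLC16A3 and -0.05 to 0.01 for SLC2A1.

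Deviations of same-numbered libraries correlated at 0.084 (Pearson, across 19093 genes). This value cannot tell whether same-numbered libraries were prepared together, which stays unknown. With the replicate block 3950 genes were higher and 3950 lower, in place of 3930 and 4086, and of the members' calls only that of PFKFB2 was lost (edgeR adjusted p = 0.0573). With 2 libraries per group the spread is estimated mostly from all genes together, and changes of low members such as CA9, PDK4, HIF3A and SLC16A3 were not detectable at this depth unless large.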

Other observations

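The pentose phosphate pathway branches off after hexokinase and supplies NADPH and ribose. Of its 10 listed genes, 9 were tested, and 4 rose and 2 fell while 3 showed no call (44.4% higher and 22.2% lower, beside 20.6% and 21.4% of all genes tested). Most of them had a mean of at least 10 CPM, where 31.5% of tested genes were higher and 25.8% lower. Among those that rose were the transketolase gene TKT (0.49), RPIA (0.44) and PGD (0.40), as log2 fold changes. TKT had 323 and 334 CPM with scramble and 454 and 472 CPM with the IRF2BP2 shRNA (edgeR adjusted p = 1.94e-06), so both shRNA libraries lay above both scramble libraries. On the same scale PGLS fell by 0.31 and TALDO1 by 0.17. Leaving out IRF2BP2 shRNA replicate 2 ended the TALDO1 call (edgeR adjusted p = 0.116).

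No tested gene for the entry of pyruvate into mitochondria moved by more than 1.5-fold. Of 16 listed, 15 were tested, and 2 rose and 5 fell while 8 showed no call (13.3% higher and 33.3% lower, beside 20.6% and 21.4% of all genes tested), with log2 fold changes between -0.50 and 0.17. Most of these genes also had a mean of at least 10 CPM, where the shares of tested genes were 31.5% higher and 25.8% lower. PDPR (-0.50) and PDP2 (-0.44), which regulate or form the phosphatase that reverses the action of the pyruvate dehydrogenase kinases, fell, as did PCK2 (-0.35) and PC (-0.14). The subunit genes DLAT (0.17) and PDHA1 (0.14) rose. The PDHA1 call was lost without scramble replicate 1 or either IRF2BP2 shRNA replicate (edgeR adjusted p between 0.0692 and 0.0998), the DLAT call without scramble replicate 2 or IRF2BP2 shRNA replicate 1 (0.0510 and 0.151), and the PC call likewise (0.0645 and 0.191). With upper quartile scaling the PDHA1 and DLAT calls were lost as well (edgeR adjusted p = 0.104 and 0.0506).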
